A study of Homo sapiens with 12 samples.

Results

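The genes described here are 10 genes of epithelial adhesion, intermediate filaments and epithelial gene control: EPCAM, CDH1, KRT8, KRT18, KRT19, CLDN3, CLDN4, CLDN6, ESRP1 and GRHL2. They were taken by gene symbol from a table of 61806 genes and followed over 6 groups of cells. The cells were H1 of wild-type genotype, an established line of human embryonic stem cells, induced to mesendoderm progenitors with the WNT activator CHIR99021 and differentiated toward the heart lineage. NP-IWP2 cells were kept static, without passaging, and were given the WNT inhibitor IWP2. P-DF cells (Pass-ctrl in the labels) were dissociated with EDTA on Day 2, replated on Matrigel and left in DF medium with no IWP2, and P-IWP2 cells were replated in the same way and also received IWP2. RNA-seq was carried out on Day 12 and Day 16 with 2 libraries for each treatment and day, 12 in all, and no label says whether the libraries of a group came from separate cultures. All groups share the cell line and the CHIR99021 induction. None of the 6 groups was static without IWP2, so P-DF differs from NP-IWP2 both by the passage and by the lack of IWP2. The study's methods give replating with or without the ROCK inhibitor Y27632. Its results state that Y27632 was used in every differentiation experiment after those that tested it. No label names it for these libraries, and its part cannot be told apart from that of the passage.

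Epithelial cells are held to each other by E-cadherin at adherens junctions and sealed by claudins at tight junctions, and their cytoskeleton is built from paired type I and type II keratins. Human embryonic stem cells are themselves epithelial, and mesoderm arises from such cells by an epithelial-to-mesenchymal transition in which E-cadherin is replaced by N-cadherin. Definitive endoderm and its liver derivatives keep an epithelial character, the keratins 8, 18 and 19 also occur in the epicardium and in early heart muscle, and cardiomyocytes are joined by N-cadherin and desmosomes at the intercalated disc.

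The 10 genes are protein-coding and lie at the same GRCh38 positions in the table and in GENCODE release 44. EPCAM (ENSG00000119888) spans chr2:47345158-47387601 on the plus strand. CDH1 (ENSG00000039068) spans chr16:68737292-68835537 on the plus strand, and CLDN6 (ENSG00000184697) spans chr16:3014712-3020071 on the minus strand. CLDN3 (ENSG00000165215, chr7:73768997-73770270, minus strand) and CLDN4 (ENSG00000189143, chr7:73799542-73832690, plus strand) are neighbours with 29271 bases between the end of the one and the start of the other. KRT8 (ENSG00000170421, chr12:52897187-52949954, minus strand) and KRT18 (ENSG00000111057, chr12:52948871-52952906, plus strand) overlap by 1084 bases on opposite strands. KRT19 (ENSG00000171345) spans chr17:41523617-41528308 on the minus strand. CLDN6 shares 1627 bases with TNFRSF12A on the opposite strand, which had 258 to 2765 counts per library, and no source used here says that strand was used in counting, so reads of the shared stretch cannot be told apart.

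Of the 10 genes, 4 have an entry in the RefSeq promoter table (GRCh38.p14), namely KRT8, CLDN3, CLDN4 and CLDN6. The 250 bases before the start of CLDN3 and of KRT8 are shown because CLDN3 had no counts in P-DF on Day 16 while KRT8 was abundant in every library, and because these windows differ most in base composition among the 4. The windows of CLDN4 and CLDN6 run into annotated untranslated exons of other transcripts and are not printed. Capitals mark the GC box GGGCGG, read on both strands. The first window is chr7:73770271-73770520 and the second chr12:52926470-52926719, both on the minus strand and written 5′ to 3′. The CLDN3 window lies directly before the gene span given above, whereas that of KRT8 precedes the start used in the RefSeq table, which lies inside the span.
CLDN3: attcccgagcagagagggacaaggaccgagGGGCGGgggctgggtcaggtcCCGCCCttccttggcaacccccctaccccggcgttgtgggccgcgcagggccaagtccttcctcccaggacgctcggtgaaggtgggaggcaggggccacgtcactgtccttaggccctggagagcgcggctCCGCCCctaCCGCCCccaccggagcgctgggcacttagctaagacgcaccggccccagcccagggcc
KRT8: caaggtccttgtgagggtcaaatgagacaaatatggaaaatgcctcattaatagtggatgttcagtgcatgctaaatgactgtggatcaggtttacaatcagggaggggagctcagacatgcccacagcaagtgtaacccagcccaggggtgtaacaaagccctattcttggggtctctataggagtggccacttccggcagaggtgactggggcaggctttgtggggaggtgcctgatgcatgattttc
The CLDN3 window held 4 GC boxes, that of CLDN6 held 2, that of CLDN4 held 1 and that of KRT8 held none, while 42.6% of 35116 promoter windows of this length held at least 1. The GC content was 71.6% for CLDN3, 68% for CLDN6, 58.8% for CLDN4 and 50.4% for KRT8, against a median of 58% over all windows. None of the 4 windows held CACCTG, the E-box that SNAI and ZEB repressors bind (17.5% of all windows), the Grainyhead motif AACCGGTT (0.117%) or TATAAA (10.7%), each searched on both strands.

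Levels are given as FPKM, the read count scaled by exon length and by the total of the library, which the authors deposited beside the counts. Between 14885589 and 19176239 reads were counted per library, so 3 counts, the limit that a count of 0 allows for counting error alone, correspond to 0.156 to 0.202 CPM (counts scaled by the library total). Log2 fold changes and adjusted p-values come from edgeR's quasi-likelihood test on the counts with Benjamini-Hochberg adjustment over 19505 genes, at a threshold of 0.05. Of the 10 members, 9 passed the filter on low counts and GRHL2 did not. CDH1, CLDN3 and CLDN4 had 212 to 566, 8 to 22 and 59 to 131 counts in static libraries and 0 to 26, 0 to 10 and 0 to 13 in passaged ones, so they passed through the group in which they are high, and counts over the members describe them without being support. The Day 12 library labelled P-IWP2 replicate 5 stood apart: its correlation with replicate 6 across genes was 0.917 and the SD of their log2 difference was 1.18, against 0.37 to 0.57 in the other 5 pairs. Its summed epicardial list, 291 FPKM, and fibroblast list, 780 FPKM, were unlike those of replicate 6, 66.9 and 49.0 FPKM. Values are therefore also given without it. The 4 comparisons of passaged with static cells share the static libraries of their day, so P-DF and P-IWP2 are not independent in them.

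In FPKM, CDH1 and EPCAM were lower in every passaged library than in every static one. CDH1, which encodes E-cadherin, was at 3.48 and 2.13 FPKM in NP-IWP2 on Day 12, at 0.06 and 0.05 in P-DF and at 0.27 and 0.06 in P-IWP2. Its Day 16 values were 4.88 and 3.96 FPKM in NP-IWP2, 0.07 and 0 in P-DF and 0.06 and 0.14 in P-IWP2. The lowest static library lay far above the highest passaged one, which was replicate 5 of P-IWP2 on Day 12, and the passaged groups overlapped with each other. CDH1 fell in P-DF by 5.60 ± 0.82 on the log2 scale on Day 12 (SE; adjusted p = 0.0091) and by 6.75 ± 0.86 on Day 16 (adjusted p = 0.0017). In P-IWP2 it fell by 4.13 ± 0.71 on Day 12 (adjusted p = 0.024), or by 5.44 without replicate 5 (adjusted p = 0.00012), and by 5.16 ± 0.75 on Day 16 (adjusted p = 0.0030). In these bulk samples, fewer cells that express a gene and less RNA per cell cannot be told apart. The 8 passaged libraries held 0 to 26 CDH1 counts each, against 212 to 566 in the static ones, so the size of the difference rests on few reads: in CPM, P-DF on Day 16 held 0.00757 of the NP-IWP2 level (95% exact interval 0.00304 to 0.0157, counting error only).

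EPCAM, a homophilic adhesion molecule of simple epithelia and of pluripotent cells, was at 9.03 and 5.86 FPKM in NP-IWP2 on Day 12, at 3.12 in both P-DF libraries and at 2.76 and 3.04 in P-IWP2. On Day 16 it was at 4.96 and 4.15 FPKM in NP-IWP2, at 2.48 and 2.49 in P-DF and at 3.66 and 3.00 in P-IWP2. All 4 static libraries were above all 8 passaged ones in FPKM, but the gap was narrow on Day 16, where P-IWP2 reached 3.66 FPKM. In TMM-scaled log2 CPM the groups overlapped on that day, with replicate 5 of P-IWP2 at 3.35 and replicate 2 of NP-IWP2 at 3.26. On Day 12 EPCAM fell by 1.17 ± 0.25 on the log2 scale in P-DF (adjusted p = 0.036) and by 1.37 ± 0.25 in P-IWP2 (adjusted p = 0.028). On Day 16 the difference of P-DF, -0.65 ± 0.25, did not pass (adjusted p = 0.11), and without the Day 12 replicate 5 it did (adjusted p = 0.039). That of P-IWP2 on Day 16 was -0.18 ± 0.24 (adjusted p = 0.64, and 0.55 without the Day 12 replicate 5). EPCAM thus kept a low but measurable level in libraries in which CDH1 was near 0: P-DF held 97 or more EPCAM counts per library.

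**Figure D1:**
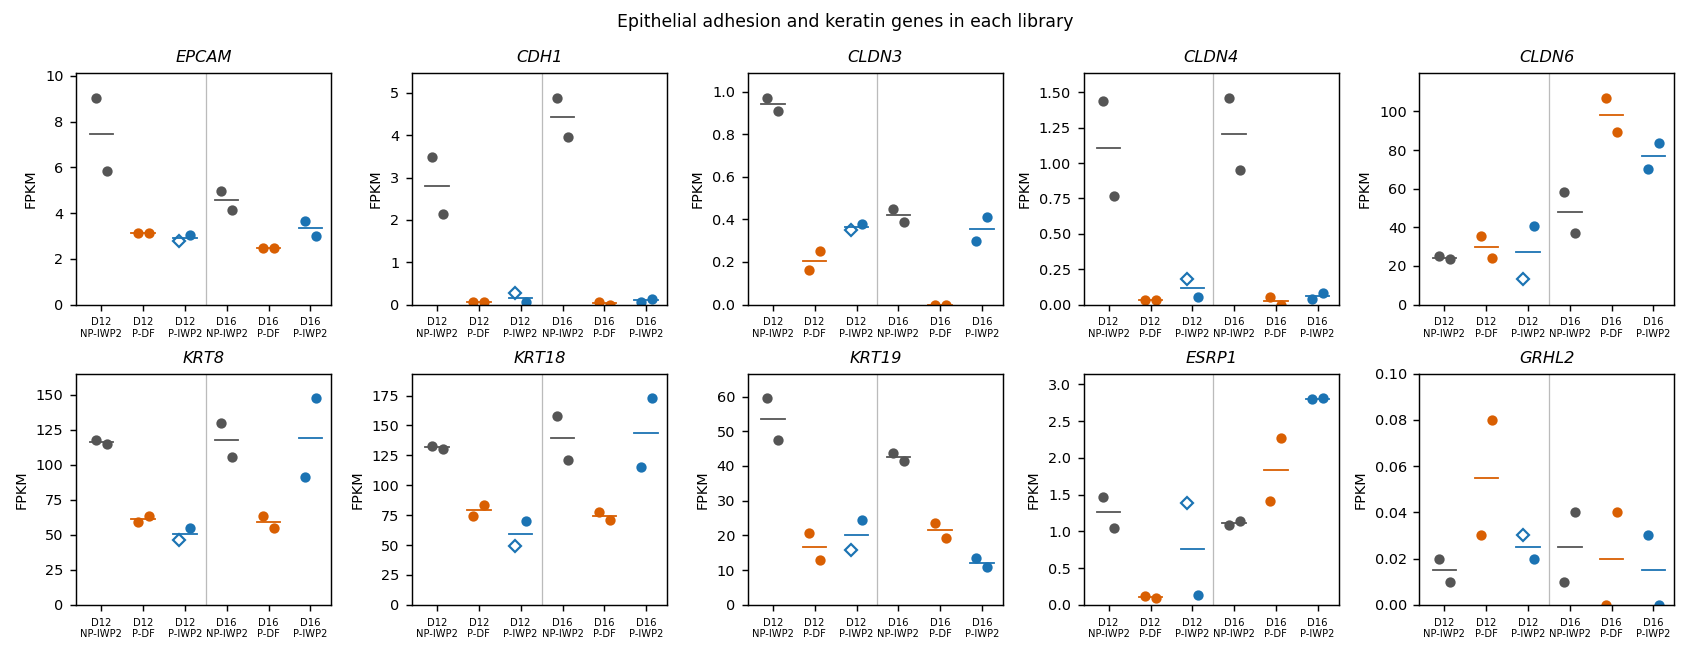
FPKM of the 10 genes in each library, by day (D12, D16) and treatment. Points are single libraries and lines are means of 2; the open diamond is the Day 12 library labelled P-IWP2 replicate 5. In FPKM the static libraries lie above all passaged ones for EPCAM, CDH1, CLDN4 and KRT19, while CLDN6 was highest in passaged cells on Day 16, with up to 107 FPKM.

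The 3 claudins did not move together. CLDN4, a barrier-forming claudin, was at 1.44 and 0.77 FPKM in NP-IWP2 on Day 12, at 0.03 in both P-DF libraries and at 0.18 and 0.05 in P-IWP2. Its Day 16 values were 1.46 and 0.95 FPKM in NP-IWP2, 0.05 and 0 in P-DF and 0.04 and 0.08 in P-IWP2. Static and passaged libraries did not overlap on either day, and the pattern of CLDN4 over the 12 libraries was the member pattern most like that of CDH1 (root mean square difference of 0.684 in centred log2 CPM). CLDN4 fell by 5.16 ± 0.87 on the log2 scale in P-DF on Day 12 (adjusted p = 0.017), by 5.29 ± 0.87 in P-DF on Day 16 (adjusted p = 0.0052) and by 4.10 ± 0.76 in P-IWP2 on Day 16 (adjusted p = 0.0083). Its difference in P-IWP2 on Day 12 was -3.32 ± 0.71 (adjusted p = 0.059), and -4.30 without replicate 5 (adjusted p = 0.0028). Each P-DF library held 0 to 4 CLDN4 counts, and the ratio of P-DF to NP-IWP2 in CPM was 0.0247 on Day 12 (95% exact interval 0.00665 to 0.0642).

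CLDN3, the neighbour of CLDN4 on chromosome 7 and another barrier-forming claudin, was low in all libraries. It was at 0.97 and 0.91 FPKM in NP-IWP2 on Day 12, at 0.16 and 0.25 in P-DF and at 0.35 and 0.38 in P-IWP2. On Day 16 it was at 0.45 and 0.39 FPKM in NP-IWP2, at 0 in both P-DF libraries and at 0.30 and 0.41 in P-IWP2. Thus P-DF was lowest on both days, while P-IWP2 overlapped with static cells on Day 16, unlike for CLDN4. With 11 and 8 counts in NP-IWP2 and 0 and 0 in P-DF on Day 16, CLDN3 was at least 3.04-fold lower in P-DF (floor of 3 counts a library; adjusted p = 0.0062). On Day 12 its difference in P-DF, -2.09 ± 0.49 on the log2 scale, did not pass (adjusted p = 0.055) and passed without the Day 12 replicate 5 of P-IWP2 (adjusted p = 0.023).

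CLDN6, a claudin of embryonic epithelia and pluripotent cells that is silent in most adult tissues, went the other way. It was at 25.2 and 23.5 FPKM in NP-IWP2 on Day 12, at 35.3 and 24.0 in P-DF and at 13.3 and 40.7 in P-IWP2, and these groups overlapped. Its Day 16 values were 58.5 and 37.0 FPKM in NP-IWP2, 107 and 89.2 in P-DF and 69.9 and 83.8 in P-IWP2, with every passaged library above both static ones. The lowest Day 12 value was that of replicate 5. The difference on Day 16 was 1.26 ± 0.49 on the log2 scale for P-DF (adjusted p = 0.11) and 0.96 ± 0.49 for P-IWP2 (adjusted p = 0.20), and both passed without the Day 12 replicate 5 (adjusted p = 0.00092 and 0.0054). Over both days, in a model of 8 libraries with day as a term, CLDN6 rose in P-DF by 0.83 ± 0.23 (adjusted p = 0.020). CLDN6 was the only claudin of the 3 above 1.46 FPKM in any library, and the 3 genes outside the members whose pattern over the 12 libraries was most like its own were SH3BGR, HSPB7 and STBD1 (root mean square differences of 0.201, 0.208 and 0.266 in centred log2 CPM).

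KRT18 and KRT8 had the highest mean levels of the 10 genes over the 12 libraries, 105 and 87.3 FPKM, followed by CLDN6 with 50.6 and KRT19 with 27.7, and CLDN6 was above all keratins in P-DF on Day 16. KRT8, the type II keratin of simple epithelia, was at 118 and 115 FPKM in NP-IWP2 on Day 12, at 59.0 and 63.4 in P-DF and at 45.9 and 54.7 in P-IWP2. On Day 16 it was at 130 and 105 FPKM in NP-IWP2, at 63.6 and 54.7 in P-DF and at 91.2 and 147 in P-IWP2. KRT18, its type I partner, was at 133 and 131 FPKM in NP-IWP2 on Day 12, at 74.7 and 83.6 in P-DF and at 49.3 and 70.0 in P-IWP2. On Day 16 KRT18 was at 158 and 121 FPKM in NP-IWP2, at 77.7 and 71.2 in P-DF and at 115 and 173 in P-IWP2. For both keratins, P-DF lay below static cells on both days without overlap, P-IWP2 lay below them on Day 12, and P-IWP2 overlapped with them on Day 16. KRT8 and KRT18 were the pair of members with the most similar patterns (root mean square difference of 0.0899 in centred log2 CPM), and their FPKM ratio stayed between 0.759 and 0.932. The genes share 1084 bases, and the part of this overlap in the similarity was not tested.

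In the comparisons within a day, none of the differences of KRT8 and KRT18 passed: they ranged from -1.22 to -0.65 on the log2 scale in P-DF on both days and in P-IWP2 on Day 12 (adjusted p = 0.068 to 0.22). Without the Day 12 replicate 5 all 6 passed (adjusted p = 0.011 to 0.042). Over both days, KRT8 fell in P-DF by 0.80 ± 0.10 (adjusted p = 0.00037) and KRT18 by 0.67 ± 0.11 (adjusted p = 0.0013). KRT19, a type I keratin of ductal and other simple epithelia, was at 59.5 and 47.5 FPKM in NP-IWP2 on Day 12, at 20.6 and 12.9 in P-DF and at 15.8 and 24.3 in P-IWP2. Its Day 16 values were 43.6 and 41.3 FPKM in NP-IWP2, 23.6 and 19.3 in P-DF and 13.5 and 10.9 in P-IWP2. All static libraries were above all passaged ones, and on Day 16 P-IWP2 was the lowest group for KRT19 while it was the highest by mean for KRT8 and KRT18. KRT19 fell in P-DF on Day 12 by 1.59 ± 0.30 (adjusted p = 0.025) and in P-IWP2 on Day 16 by 1.53 ± 0.30 (adjusted p = 0.0098). In P-IWP2 on Day 12 (-1.41 ± 0.30, adjusted p = 0.054) and in P-DF on Day 16 (-0.76 ± 0.29, adjusted p = 0.11) it missed the threshold, and both passed without replicate 5 (adjusted p = 0.0099 and 0.0077).

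ESRP1 (ENSG00000104413, chr8:94641074-94707466, plus strand), an RNA-binding protein that sets the epithelial pattern of splicing, had a different time course. It was at 1.47 and 1.05 FPKM in NP-IWP2 on Day 12, at 0.12 and 0.10 in P-DF and at 1.38 and 0.14 in P-IWP2. The high P-IWP2 value was that of replicate 5, with 105 counts against 11 in replicate 6. On Day 16 ESRP1 was at 1.08 and 1.14 FPKM in NP-IWP2, at 1.41 and 2.27 in P-DF and at 2.80 and 2.81 in P-IWP2. The P-DF libraries thus lay below both static ones on Day 12 and above both on Day 16. The difference in P-DF was -3.38 ± 0.81 on the log2 scale on Day 12 (adjusted p = 0.052) and 0.97 ± 0.65 on Day 16 (adjusted p = 0.34). For P-IWP2 neither passed: it was -0.84 ± 0.67 on Day 12, where the libraries overlapped with static ones, and 1.62 ± 0.65 on Day 16 (adjusted p = 0.74 and 0.12). Leaving out replicate 5 put the differences at -3.38 and 0.97 in P-DF and at -3.11 and 1.62 in P-IWP2 on Day 12 and Day 16. That fit held 1 P-IWP2 library of Day 12, with 11 counts. GRHL2 (ENSG00000083307, chr8:101492439-101669726, plus strand), a Grainyhead transcription factor that maintains CDH1 and claudin expression in epithelia, had 0 to 8 counts per library and 0.08 FPKM or less, and was not tested.

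**Figure D2:**
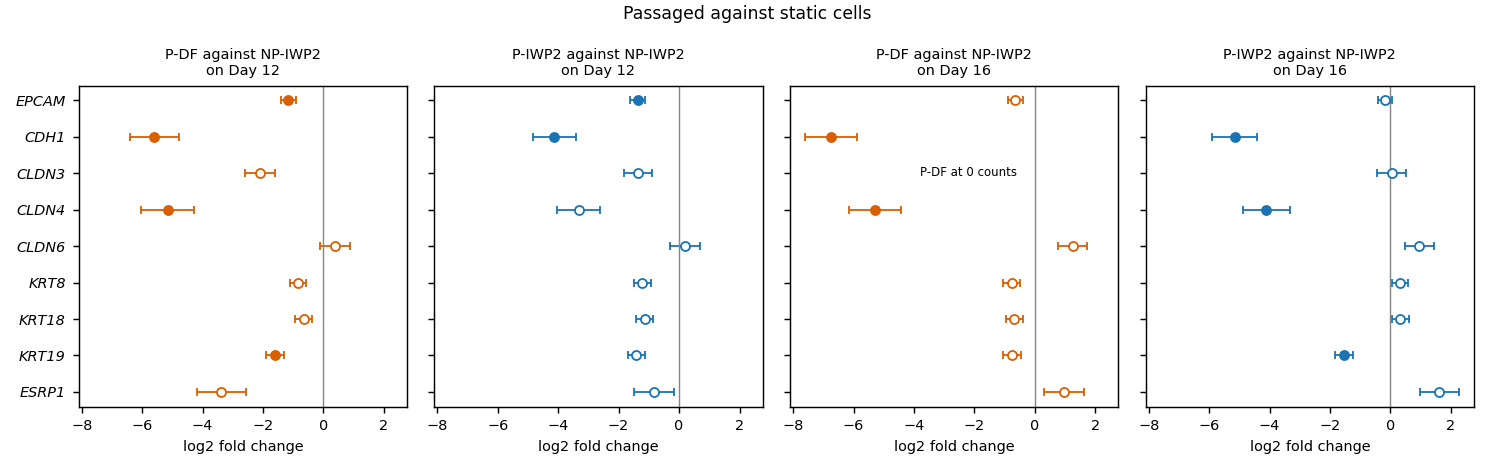
Log2 fold change of 9 members in passaged against static cells on each day, with SE, from edgeR's quasi-likelihood test. Filled points passed an adjusted p of 0.05 over all genes and open points did not; CLDN3 in P-DF on Day 16 had no counts and is not drawn. CDH1 passed in all 4 comparisons, and CLDN6 had values of 1.26 and 0.96 on Day 16, neither of which passed.

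Counted over the list, more members were called lower than higher in passaged cells in each comparison within a day. In P-DF on Day 12, 4 of 9 tested members fell (CDH1, CLDN4, EPCAM and KRT19) and 0 rose, against 4.01% of all genes called and 3.32% called lower. In P-DF on Day 16, 3 fell (CDH1, CLDN3 and CLDN4) and 0 rose, against 15.3% of all genes called, 9.86% lower and 5.39% higher. On Day 12, 2 fell in P-IWP2 (CDH1 and EPCAM) and 0 rose, with 1.66% of all genes called and 1.33% called lower. In P-IWP2 on Day 16, 3 fell (CDH1, CLDN4 and KRT19) and 0 rose, with 17.1% of all genes called, 9.95% lower and 7.15% higher. The median log2 fold change of the tested members was -1.59, -0.76, -1.36 and 0.036 in these 4 comparisons in the order given, and that of all genes lay between -0.030 and 0.0092. In FPKM, 8 of the 10 members lay below both static libraries in both P-DF libraries on Day 12 (41.2% of all genes did) and 7 on Day 16 (50.2%). In P-IWP2 there were 7 on Day 12 (17.7%) and 4 on Day 16 (50.7%), so the last share was below that of all genes. Above both static libraries lay 1 member in P-DF on Day 12 (24.6% of genes) and 2 on Day 16 (18.8%), and 0 and 2 in P-IWP2 (15.7% and 16.2%). These shares are of the 19505 genes tested, whereas the 10 members include GRHL2, which was not tested.

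Without the Day 12 replicate 5 of P-IWP2 the counts of called members rose with those of all genes. In P-DF, 8 fell on Day 12 with 21.9% of genes called, and 7 fell and 2 (CLDN6 and ESRP1) rose on Day 16 with 32.4% called. In P-IWP2, 7 fell on Day 12 with 15% called, and 3 fell and 2 (CLDN6 and ESRP1) rose on Day 16 with 34.8% called. Leaving out its partner, replicate 6, gave the same number of called members in these 4 comparisons, but not the same members in P-IWP2 on Day 12. CLDN6 there was at 0.83 on the log2 scale without replicate 5 and at -1.02 without replicate 6. Without either of them the difference between the pair no longer enters the shared estimate of the spread. Its part in the counts was not tested. Over both days, 7 of 9 tested members fell in P-DF (CDH1, CLDN3, CLDN4, EPCAM, KRT8, KRT18 and KRT19) and CLDN6 rose, where 33.5% of all genes were called, 18.9% lower and 14.6% higher. In P-IWP2 over both days, 3 fell (CDH1, CLDN4 and KRT19) and 0 rose, where 2.47% were called and 2.07% called lower. Without replicate 5 the same 3 members fell and CLDN6 rose by 0.90 (adjusted p = 0.011), with 24% of genes called.

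The effect of IWP2 after passaging was compared between P-IWP2 and P-DF. No member and no gene (0%) was called on either day by edgeR, although 1 member on Day 12 and 4 on Day 16 had an unadjusted p under 0.05. By DESeq2, 1 member was called on Day 16, and by limma on FPKM none was called on either day. On Day 16 KRT8 and KRT18 were higher in both P-IWP2 libraries than in both P-DF libraries, by 1.07 ± 0.27 and 1.01 ± 0.29 on the log2 scale (adjusted p = 0.41 and 0.42). CLDN3 had 7 and 10 counts in P-IWP2 and none in P-DF (adjusted p = 0.21). Without the Day 12 replicate 5, KRT8, KRT18 and CLDN3 passed (adjusted p = 0.019, 0.019 and 0.030), with 2.49% of all genes called. A p that misses the threshold does not show that the passaged groups were alike.

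From Day 12 to Day 16, some members were called higher in passaged cells and none passed in static cells. This does not show that the treatments differed. CLDN6 also rose in NP-IWP2, by 1.10 ± 0.49 on the log2 scale (adjusted p = 0.26), with both Day 16 libraries above both of Day 12. In NP-IWP2, 0 of 9 tested members were called by edgeR, where 1.98% of all genes were (0.877% higher and 1.1% lower), 2 members had an unadjusted p under 0.05, and DESeq2 and limma called 0. In P-DF, ESRP1 rose by 4.26 ± 0.82 on the log2 scale (adjusted p = 0.011) and CLDN6 by 1.98 ± 0.50 (adjusted p = 0.032), with 13.6% of all genes called (6.79% higher and 6.81% lower). CLDN3 went from 3 and 5 counts to 0 in P-DF, at least 1.46-fold lower (adjusted p = 0.023). This call held in only 2 of the 5 alternatives that tested it, and not by DESeq2, with only the groups compared or with a replicate block. In P-IWP2, 4 members rose, with 27% of all genes called (12.9% higher and 14.1% lower): ESRP1 by 2.38 ± 0.68 (adjusted p = 0.031), CLDN6 by 1.87 ± 0.50 (adjusted p = 0.025), KRT18 by 1.67 ± 0.29 (adjusted p = 0.0052) and KRT8 by 1.66 ± 0.27 (adjusted p = 0.0043). Without replicate 5 of Day 12 these 4 were still called, with 23.7% of all genes called, ESRP1 with a larger rise of 4.65 and CLDN6 with a smaller one of 1.23, and KRT19 fell by 0.70 (adjusted p = 0.046). In P-DF without it, KRT19 also rose, by 0.62 (adjusted p = 0.030), with 29.2% of all genes called. In NP-IWP2 without it, CLDN6 rose by 1.10 (adjusted p = 0.0069), with 17.1% called. CDH1 and CLDN4 stayed near 0 in passaged cells on both days, and edgeR called no difference between the days for either in any treatment in the model with all groups. With only the groups compared, CDH1 and CLDN6 were called higher on Day 16 in NP-IWP2 (for CDH1 0.76 on the log2 scale, adjusted p = 0.026).

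**Figure D3:**
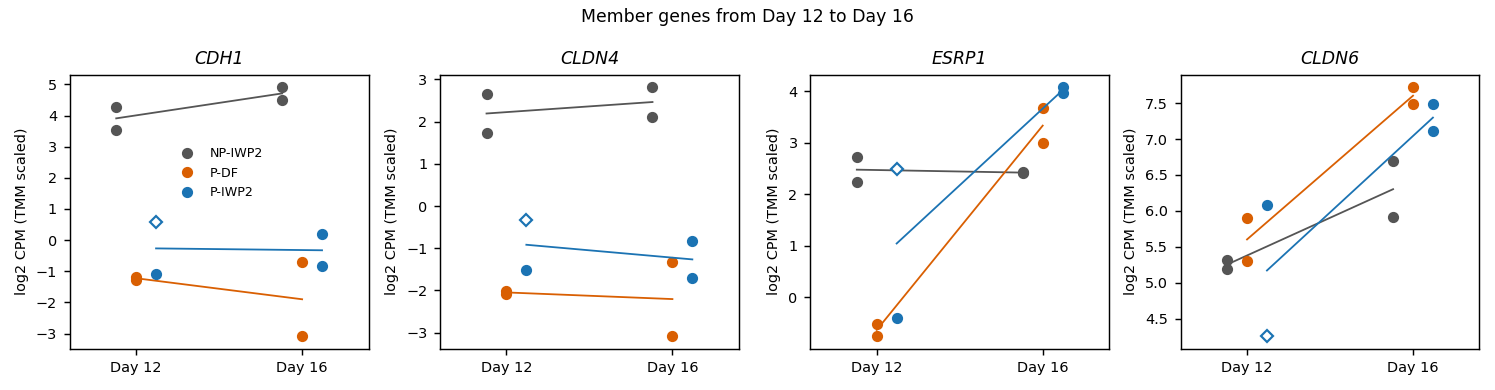
Log2 CPM (TMM scaled) of CDH1, CLDN4, ESRP1 and CLDN6 on Day 12 and Day 16. Points are libraries, lines join the means of a treatment, and the open diamond is the Day 12 library labelled P-IWP2 replicate 5; ESRP1 starts below the static libraries in P-DF on Day 12 and ends above them on Day 16, whereas CDH1 stays low.

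Whether the difference between passaged and static cells itself changed with the day was tested as an interaction. No member passed for P-DF (0.482% of all genes called, 0.174% higher and 0.308% lower, and 2 members with an unadjusted p under 0.05) or for P-IWP2 (1.84% of all genes, 0.774% higher and 1.06% lower, and 4 members) by edgeR, while DESeq2 called 1 and 2 members and limma none. CLDN6 had an interaction of 0.88 ± 0.69 on the log2 scale for P-DF and 0.77 ± 0.69 for P-IWP2 (adjusted p = 0.66 and 0.55). ESRP1 had the largest interaction for P-DF, 4.35 ± 1.04 on the log2 scale (adjusted p = 0.12), and 2.46 ± 0.93 for P-IWP2 (adjusted p = 0.18). Without replicate 5 both passed (adjusted p = 0.00012 and 0.00014), and KRT8 and KRT18 passed for P-IWP2 (1.31 and 1.15, adjusted p = 0.031 and 0.043), with 7.62% and 7.89% of all genes called.

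By group mean, the 10 genes did not share 1 order of levels. CDH1 and CLDN4 ran from NP-IWP2 on Day 16 through NP-IWP2 on Day 12 to the 4 passaged groups, whose neighbours overlapped except P-IWP2 on Day 16 and P-DF on Day 12 for CLDN4. EPCAM ran from NP-IWP2 on Day 12 and Day 16 down to P-DF on Day 16, with 1 pair of neighbours overlapping. CLDN6 ran from P-DF on Day 16 to NP-IWP2 on Day 12, and the 3 groups of Day 12 overlapped in part. ESRP1 was highest in P-IWP2 on Day 16 and lowest in P-DF on Day 12. The genes nearest to the mean pattern of the 9 tested members were MT2A, a metallothionein, SPIN4 and ADGRA2 (root mean square differences of 0.204, 0.280 and 0.313 in centred log2 CPM over 12 libraries).

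Of 36 other listed genes of epithelial junctions and polarity, 32 were tested, and calls went in both directions. In P-DF on Day 12, CGN, CLDN7 and DSC3 fell, and on Day 16 CTNNA1 rose and 5 fell (CGN, CLDN1, CLDN7, DSC3 and TJP3). In P-IWP2, 0 were called on Day 12, and on Day 16, 4 rose (CTNNA1, JUP, NECTIN2 and PERP) and the same 5 symbols fell. The 6 calls in P-DF and 9 in P-IWP2 on Day 16 stand beside 15.3% and 17.1% of all genes called. Without replicate 5 the P-DF counts became 3 up and 15 down on Day 12 and 8 up and 7 down on Day 16, and those of P-IWP2 4 up and 9 down and 7 up and 5 down, beside 21.9%, 32.4%, 15% and 34.8% of all genes called. The median log2 fold change of this list was -0.24, 0.034, -0.19 and 0.046 in P-DF on Day 12 and Day 16 and P-IWP2 on Day 12 and Day 16.

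DSC3, a desmosomal cadherin of stratified epithelia, was at 21.5 and 24.3 FPKM in NP-IWP2 on Day 12, at 1.59 and 0.40 in P-DF and at 5.68 and 1.81 in P-IWP2. It was at 19.2 and 19.95 FPKM in NP-IWP2 on Day 16 and at 0.43 or less in the 4 passaged libraries. It fell in P-DF by 4.44 ± 0.62 on the log2 scale on Day 12 (adjusted p = 0.0072) and by 5.32 ± 0.66 on Day 16 (adjusted p = 0.0014). The desmosomal plaque genes that heart muscle also uses stayed high. PKP2, plakophilin 2, was at 49.8 to 85.7 FPKM in the 12 libraries, and over both days it rose in P-DF by 0.59 ± 0.08 (adjusted p = 0.00032). DSP, desmoplakin, was at 37.3 to 83.1 FPKM and rose in P-DF over both days by 0.33 ± 0.08 (adjusted p = 0.013). In that comparison 14.6% of all genes were called higher. In P-IWP2 over both days PKP2 and DSP were not called, and DSP was called lower on Day 16 than on Day 12. On Day 16 the mean of DSP was 42.6 FPKM in P-IWP2 and 47.2 in NP-IWP2, and that of PKP2 was 83.1 and 55.8. CDH2, the N-cadherin of heart muscle and mesenchyme, was at 94.6 to 121 FPKM in static libraries and at 102 to 162 in passaged ones, and rose on Day 16 by 0.83 ± 0.22 in P-DF (adjusted p = 0.038) and by 0.78 ± 0.22 in P-IWP2 (adjusted p = 0.042).

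Of 23 listed epithelial regulators and surface enzymes, 16 were tested. In P-DF 3 fell on Day 12 (AP1M2, RAB25 and SPINT1) and 4 on Day 16 (KLF5, MAL2, PRSS8 and SPINT1). In P-IWP2, SPINT1 fell on Day 12, and ESRP2, MAL2, RAB25 and SPINT1 fell on Day 16. Of all genes, 3.32% and 9.86% were called lower in P-DF on Day 12 and Day 16, and 1.33% and 9.95% in P-IWP2. No gene of this list rose in any of the 4 comparisons, and without replicate 5, 9 and 8 fell in P-DF and 3 and 7 in P-IWP2 on Day 12 and Day 16, and 1 rose on Day 16 in each passaged group. With all libraries, 0.697%, 5.39%, 0.328% and 7.15% of all genes were called higher in P-DF and P-IWP2 on Day 12 and Day 16. A count of 0 among 16 tested genes lies near these shares. The shares of all genes without replicate 5 are those given above for the members. The list medians lay between -0.89 and -0.55. Highest in mean FPKM were SPINT2, LSR, ERBB3 and KLF5. SPINT2, LSR and ERBB3 were called in none of the 4 comparisons. Their mean FPKM is given here for NP-IWP2, P-DF and P-IWP2 in this order. On Day 12 it was 18.9, 16.5 and 22.8 for SPINT2, 9.59, 9.605 and 10.3 for LSR and 3.895, 2.3 and 1.525 for ERBB3. On Day 16 it was 12.85, 10.2 and 13.6 for SPINT2, 7.33, 5.965 and 5.655 for LSR and 2.755, 5.08 and 3.15 for ERBB3. SPINT1, a membrane inhibitor of serine proteases, was at 2.49 to 4.78 FPKM in static libraries and at 0.11 to 0.44 in passaged ones, and fell in all 4 comparisons (adjusted p = 0.0020 to 0.0070). Of 14 mesenchymal regulators and cadherins, 13 were tested and their medians were also below 0 in all 4 comparisons. In P-DF 6 fell on Day 12 and 7 on Day 16, SNAI1, SNAI2, SPARC, MMP2 and VIM on both days, and CDH2 and PRRX1 rose on Day 16. In P-IWP2, 1 fell on Day 12, and 5 fell and 2 rose on Day 16. Without replicate 5, 9 of these genes fell in each of the 4 comparisons, 1 and 4 rose in P-DF on Day 12 and Day 16, and 0 and 4 rose in P-IWP2. SNAI2, which encodes a repressor of CDH1, fell in P-DF by 3.17 ± 0.72 on Day 12 (adjusted p = 0.044) and by 3.84 ± 0.74 on Day 16 (adjusted p = 0.0098), and is named here after its values were seen. ZEB1 of the same list went the other way, with mean levels of 4.62 FPKM in NP-IWP2 and 5.48 in P-DF on Day 12. Its Day 16 means were 5.875 and 7.245 FPKM. Over both days in P-DF, edgeR called ZEB1 higher and SNAI1, SNAI2 and ZEB2 lower, with 33.5% of all genes called.

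**Figure D4:**
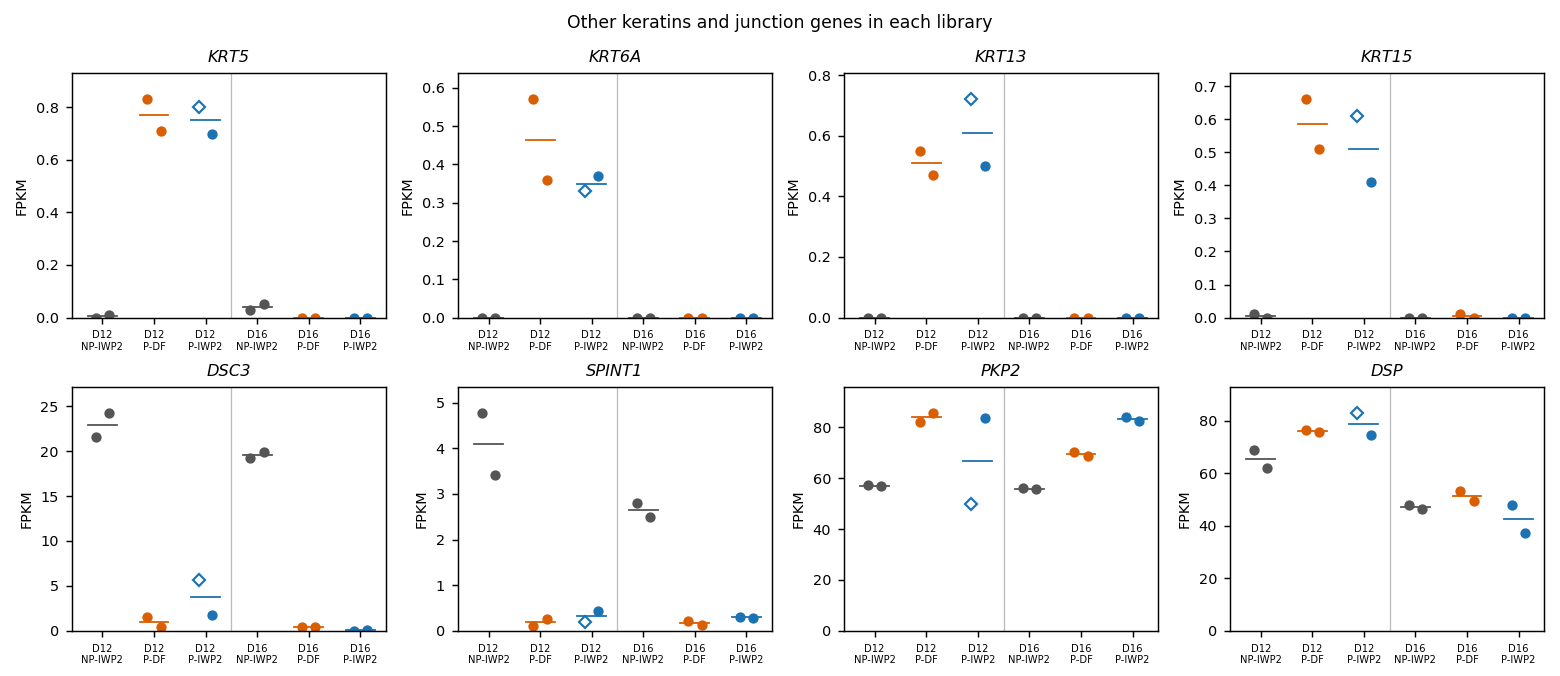
FPKM of keratins of stratified epithelia (top) and of SPINT1 and desmosomal genes (bottom) in each library, drawn as points with the mean of 2 as a line; the open diamond is the Day 12 library labelled P-IWP2 replicate 5. DSC3 and SPINT1 are low in passaged cells, PKP2 and DSP are high in all groups, and the 4 keratins have values of 0.33 to 0.83 FPKM in the passaged libraries of Day 12.

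Markers of other cell types were also called in these comparisons. Beside all list counts that follow, 3.32% and 9.86% of all genes were called lower in P-DF on Day 12 and Day 16. In P-IWP2 these shares were 1.33% and 9.95%. Called higher were 0.697% and 5.39% in P-DF and 0.328% and 7.15% in P-IWP2. The shares of all genes called without replicate 5 are those given above for the members. All 23 hepatic and endoderm genes were tested, and 17, 18, 11 and 16 of them fell in P-DF on Day 12 and Day 16 and in P-IWP2 on Day 12 and Day 16, with 0 rising. In the same order, 10, 7, 2 and 10 of them were at 0 in the passaged group. Genes at 0 in a group, here and in the lists below, passed the filter through other groups. The list counts therefore describe these genes without being support. Without replicate 5, 21, 22, 19 and 21 fell and 1 rose in P-DF on each day. Their summed level was 536 to 757 FPKM in NP-IWP2 on Day 12 and 900 to 1088 on Day 16, and 24.5 to 40.0 in the 8 passaged libraries. HNF4A, a hepatic regulator, was at 0 in 3 of the 4 passaged groups and FOXA2, an endoderm regulator, in 2. Of 15 epicardial and mesothelial genes, 14 were tested and 3 and 9 fell in P-DF and 2 and 8 in P-IWP2 on Day 12 and Day 16. Without replicate 5, 9 and 13 fell in P-DF and 8 and 13 in P-IWP2, and on Day 12, 2 rose in P-DF and 1 in P-IWP2. Their sum was 133 to 188 FPKM in static libraries and 18.7 to 66.9 in passaged ones, apart from replicate 5 of Day 12, which had 291 FPKM and 106 FPKM of TBX18. The sum of 11 fibroblast and stromal genes was 822 to 1441 FPKM in static libraries and 29.4 to 49.0 in passaged ones, again apart from replicate 5 with 780, and 9 and 10 of them fell in P-DF and 2 and 10 in P-IWP2 on Day 12 and Day 16 (11 and 10, and 10 and 11, without replicate 5).

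Of 11 pluripotency genes, 7 were tested, and 4 and 4 fell in P-DF and 1 and 3 in P-IWP2 on Day 12 and Day 16. Without replicate 5, 6 and 5 fell in each treatment, and 2 rose in P-DF on Day 12 and 1 in P-IWP2 on Day 16. Their summed level was 11.7 to 52.7 FPKM, and PRDM14 was at 0 in all 6 groups and NANOG in 5. The list of 11 surface ectoderm and trophoblast genes summed to 231 to 255 FPKM in static libraries and 74.2 to 123 in passaged ones, with 5 genes tested, of which IGFBP3 fell in all 4 comparisons, GATA3 fell in P-IWP2 on Day 16 and GABRP rose on Day 16 in both passaged groups, and VGLL1 was at 0 in every group. Without replicate 5, 4 and 3 of these genes fell in P-DF and 3 and 4 in P-IWP2 on Day 12 and Day 16, and 1 rose on Day 16 in each treatment. The sum of 10 endothelial genes was 54.1 to 210 FPKM in static libraries and 12.3 to 236 in passaged ones, and 5 and 2 of them fell in P-DF and 0 and 1 in P-IWP2 on Day 12 and Day 16 (9 and 9, and 9 and 6, without replicate 5). With all libraries, the 1 endothelial gene of 10 called lower in P-IWP2 on Day 16 was near the share of all genes, 9.95%. The cardiomyocyte list, of which all 14 genes were tested, summed to 5058 and 5735 FPKM in NP-IWP2 on Day 12 and to 5671 to 5812 in passaged libraries, except replicate 5 with 2405. On Day 16 it summed to 3519 and 4499 FPKM in NP-IWP2 and to 10502 to 12244 in passaged libraries, with 7 genes rising in P-DF, 6 in P-IWP2 and MYH6 falling in both. Without replicate 5, 7 and 13 of them rose in P-DF and 6 and 13 in P-IWP2 on Day 12 and Day 16, and 1 fell in P-DF on each day and in P-IWP2 on Day 16. On the same day the members' summed level was 315 and 403 FPKM in NP-IWP2, 239 and 276 in P-DF and 297 and 421 in P-IWP2, most of it keratin and CLDN6. The part of these cell types in the differences of the members was not tested.

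**Figure D5:**
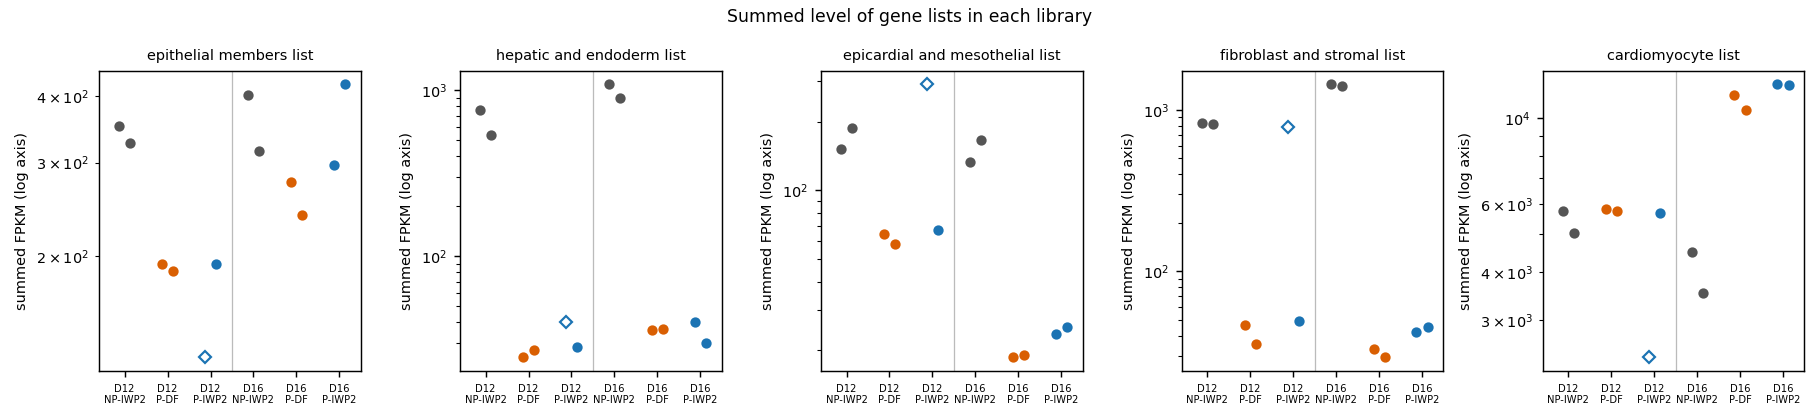
Summed FPKM (log axis) of the 10 members and of 4 marker lists in each library. The hepatic, epicardial and fibroblast lists are lower in passaged than in static libraries, except that the Day 12 library labelled P-IWP2 replicate 5 (open diamond) has 291 FPKM of the epicardial and 780 FPKM of the fibroblast list; the cardiomyocyte list is at 10502 FPKM or more in passaged libraries on Day 16.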

How the data were processed

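RNA-seq libraries of H1 cells on Day 12 and Day 16 were grouped by the treatment and day given in the labels. The authors trimmed reads with Cutadapt 1.9.1, aligned them to hg38 with HISAT2 2.0.1 and counted them per gene with HTSeq 0.6.1, per the labels' processing notes, which also name DESeq2. They deposited raw counts and FPKM in 1 table. Each deposited FPKM equals the count divided by exon length and library total within 0.0051 FPKM. The labels name a long-read library kit, and whether counting used strand is not given in the sources used here.

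Counts were fitted with edgeR 4.0.16 in R 4.3.3 (TMM, filterByExpr, quasi-likelihood test) in 1 model of 6 groups. Each passaged treatment was also compared with static culture across the days, on 8 libraries, with day as a covariate. P-values measure the spread between libraries, which may be technical. The alternatives were DESeq2 1.42.0, total counts, no filter, only the groups compared, limma 3.58.1 on log2(FPKM + 1) or log2(FPKM + 0.1) for genes with a mean of at least 1 FPKM, a replicate block, and each library left out. On simulated counts for P-DF on Day 16, 81 of 200 changed genes among 18837 were recovered (22 of 100 changed 2-fold and 59 of 100 changed 4-fold) with 10 false calls.

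The members and the 11 other lists were chosen with earlier results of these data known. A rule took up to 4 genes with the highest mean FPKM from each other list. From the 3 epithelial lists it also took up to 3 called genes with the largest change per comparison. The text names only some of the genes so taken. Other genes named in the text from these lists were chosen after their values were seen. The result of 1 gene of the junction list is not reported here. Patterns were compared over 12 libraries by the root mean square difference of centred log2 CPM. Tables and figures were made with Python 3.11.15, pandas 2.3.3 and matplotlib 3.10.9.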

Additional observations from a re-analysis of the deposited data

Results flagged for a closer look

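ESRP1 in P-DF lay on opposite sides of static cells on the 2 days, with both P-DF libraries below both static ones on Day 12 and above both on Day 16. The interaction with day was 4.35 on the log2 scale by edgeR's quasi-likelihood test (adjusted p = 0.12). It did not pass the threshold with all libraries and passed once replicate 5 of P-IWP2 on Day 12 was left out (adjusted p = 0.00012) or its partner, replicate 6 (adjusted p = 0.00011). Over the 7 alternatives the value ran from 1.43, by limma on log2(FPKM + 1), to 4.35, the adjusted p ran from 5.1e-15 to 0.22 and passed in 3, and over the 12 fits that each left out 1 library the value ran from 3.95 to 4.66.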

How the results depend on the processing

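With all 12 libraries, CDH1 was called in each of the 4 comparisons within a day and in both over both days. Under the alternatives other than leaving out a library, it was called except in 2 for P-IWP2 on Day 12. With 1 library left out at a time, some fits did not call CDH1 in P-DF or in P-IWP2 on Day 12. Its log2 fold change in these fits ran from -5.92 to -5.19 and from -5.44 to -3.50. The number of called members moved by over 1.5 times as follows. In P-DF on Day 12 (4 called), it was 7 without the filter and 8 with only the groups compared. In P-DF on Day 16 (3), it was 5 by DESeq2, 7 with total counts, 8 without the filter, 9 with only the groups compared and 5 by limma with either pseudocount. In P-IWP2 on Day 12 (2), it was 6 by DESeq2, 5 with total counts, 6 without the filter, 0 with only the groups compared and 4 by limma on log2(FPKM + 1). In P-IWP2 on Day 16 (3), it was 5 without the filter and 5 with only the groups compared. For P-IWP2 against P-DF (0 on both days), it was 2 on Day 12 and 4 on Day 16 without the filter, and on Day 16 it was 1 by DESeq2 and 3 with only the groups compared. Between the days, NP-IWP2 (0) had 1 without the filter and 2 with only the groups compared, and P-IWP2 (4) had 0 with only the groups compared. For the interactions (0 each), P-DF had 1 by DESeq2, 3 without the filter and 1 with only the groups compared, and P-IWP2 had 2 by DESeq2 and 5 without the filter. The cause of these moves was not tested.

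Leaving out 1 library at a time gave 0 to 8 called members in P-DF on Day 12, 2 to 9 in P-DF on Day 16, 0 to 7 in P-IWP2 on Day 12 and 1 to 5 in P-IWP2 on Day 16. It gave 0 to 3 for P-IWP2 against P-DF on each day, 0 to 1 between the days in NP-IWP2, 0 to 4 in P-DF and 2 to 5 in P-IWP2, 0 to 1 and 0 to 5 for the interactions of P-DF and P-IWP2, and 7 to 8 and 1 to 4 for P-DF and P-IWP2 over both days. In the 4 comparisons of passaged with static cells within a day, the highest counts came without replicate 5 or 6 of P-IWP2 on Day 12. P-DF on Day 12 had 0 called members without NP-IWP2 replicate 1 or either P-DF library of that day, and 2 without either NP-IWP2 library of Day 16. P-IWP2 on Day 12 had 0 without NP-IWP2 replicate 1 of that day or either NP-IWP2 library of Day 16, and 1 without NP-IWP2 replicate 2 of Day 12. P-IWP2 on Day 16 had 1 without either P-IWP2 library of that day. Between the days, P-DF had 0 or 1 without any 1 of its own libraries or either NP-IWP2 library of Day 12, and P-IWP2 had 2 without either of its own libraries of Day 16. A group left with 1 library is assumed to vary like the others.

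Of 71 member values called in at least 1 setting, CLDN6 in P-IWP2 on Day 12 turned sign by limma (-0.05 and -0.06 with a pseudocount of 1 and 0.1) and without replicate 6 (-1.02, adjusted p = 0.044; range on leaving out 1 library -1.02 to 0.83), CLDN6 in P-IWP2 against P-DF on Day 12 turned to 0.15 and 0.46 without P-DF replicate 3 and P-IWP2 replicate 5 (range -1.39 to 0.46), and KRT19 between the days in P-IWP2 turned to 0.16 without Day 12 replicate 6 (range -0.70 to 0.16). Of 46 values called in no setting, 22 changed sign in some setting.

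No pairing of the replicate numbers of the 2 days was seen: deviations of equal numbers correlated at 0.075, -0.0015 and -0.031 in the 3 treatments. With 2 libraries a group this gives 1 value per treatment, which cannot exclude that equal numbers shared a culture. With a replicate block, 2 members were called for the interaction of P-IWP2 with day in place of 0, and 0, 2, 4 and 0 for the days in NP-IWP2, P-DF and P-IWP2 and for the interaction of P-DF. Scaling by total counts instead of TMM put the median log2 fold change of all genes at -0.25 and -0.31 on Day 16 in P-DF and P-IWP2 and at -0.49 and -0.28 between the days in P-IWP2 and P-DF. CLDN3, CLDN4 and CDH1, with at most 10, 13 and 26 counts in a passaged library, carry wide counting error there.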

Other observations

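KRT5, KRT6A, KRT13 and KRT15, keratins of stratified epithelia, had counts in passaged cells on Day 12 and almost none in the other libraries. KRT5, the type II keratin of basal cells, had 51 and 47 counts in P-DF and 52 and 48 in P-IWP2 on Day 12, 0 and 1 in NP-IWP2 on that day, 2 and 3 in NP-IWP2 on Day 16 and 0 in all 4 passaged libraries of Day 16. KRT15, another basal keratin, had 59, 49, 57 and 40 counts in the same passaged libraries of Day 12 and 0 or 1 in the other 8. KRT13, a keratin of internal stratified epithelia, had 24, 22, 33 and 24 counts there, and KRT6A had 25, 17, 15 and 18, and both were at 0 in the other 8 libraries. Other keratins of such epithelia did not share this: KRT14 had 1 to 3 counts in the passaged libraries of Day 12, and KRT16 had 4, 9, 20 and 10 counts in the static libraries and 0 or 1 in the passaged ones. Of 17 other keratins and plakins, 9 were tested, these 4 through the passaged libraries of Day 12 in which they are high. On Day 12, 4 of the list were called higher in P-DF and 3 in P-IWP2 by edgeR's quasi-likelihood test and 0 lower, with 0.697% and 0.328% of all genes called higher, and without replicate 5, 4 were called higher and 1 lower in each. At under 1 FPKM these levels lie far below those of KRT8 and KRT18, and the genes were singled out after their values were seen.

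On Day 16, PPL and KRT80 were higher in passaged cells. PPL, the plakin periplakin, was at 4.97 to 6.05 FPKM in the 4 passaged libraries of Day 16 and at 0.76 to 1.79 in the other 8, and rose on Day 16 in P-DF by 2.24 ± 0.30 on the log2 scale and in P-IWP2 by 2.14 ± 0.30 (adjusted p = 0.0022 and 0.0027, edgeR's quasi-likelihood test). KRT80, a type II keratin, was at 0.73 to 2.01 FPKM in those libraries and at 0.23 or less in the others, and rose in P-DF by 2.55 ± 0.47 and in P-IWP2 by 3.41 ± 0.48 (adjusted p = 0.0087 and 0.0025). In the same list KRT16 fell on Day 16 in P-DF and in P-IWP2 (adjusted p = 0.027 and 0.024), with 0 counts in the 4 passaged libraries. KRT222 had 51 and 43 counts in NP-IWP2 on Day 12, 19 and 29 on Day 16 and none in the passaged libraries of Day 16, and fell in P-IWP2 on that day (adjusted p = 0.048) while P-DF missed the threshold (adjusted p = 0.054). KRT16 and KRT222 passed the filter on low counts through the static libraries, in which they are high. KRT80 had its highest counts in the passaged libraries of Day 16, summing to 130 in P-DF and 251 in P-IWP2 against 27 in NP-IWP2. These calls therefore describe the 3 keratins without being support.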
